A study of Mus musculus with 9 samples.

Results

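The EGF receptor family and its ligands were followed in mouse skin as 9 genes, the 3 receptor genes Egfr, Erbb2 and Erbb3 and the 6 ligand genes Tgfa, Areg, Hbegf, Ereg, Epgn and Btc. They were taken by gene symbol, each symbol matched 1 row, and the deposited table held 57180 rows in all. The 9 RNA-seq libraries were made from skin of BALB/c nude animals, which lack a thymus and grow little hair. The UVB-hCOL3A1 group (3 libraries) was irradiated and given hCOL3A1, type III collagen supplied in the form of mRNA according to the series title. The UVB-Saline group (3 libraries) was irradiated and given saline, and the NoUVB group (3 libraries) was not irradiated. Dorsal skin was exposed to ultraviolet B every second day for 8 weeks. The dose was 60 mJ/cm² at first, which is 1 minimal erythemal dose, moving to 120 mJ/cm² in the third week and 180 mJ/cm² in the fourth, and ending at 240 mJ/cm² (4 minimal erythemal doses). Collection is placed at day 28 without saying from when that is counted. The age of the mice, the dose, carrier and route of hCOL3A1, and which animal gave which library are unknown here, so the error behind each p value is that between libraries and may be technical. None of these groups is labelled as carrier or another RNA alone, and no saline is named for NoUVB, so effects of the collagen cannot be told apart from those of its delivery, nor those of radiation from those of saline.

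EGF-type ligands are made as membrane-anchored precursors, and cell-surface proteases of the ADAM family release them. Released ligand binds EGFR, which pairs with another receptor of the family and signals through the RAS to ERK kinase cascade and through PI3 kinase. ERBB2 binds no known ligand of its own and serves as a partner, and ERBB3, whose kinase is weak, binds neuregulins and depends on a partner. In epidermis the pathway is known for keratinocyte growth and wound closure, and in mice, loss of Tgfa or weakened Egfr gives wavy hair.

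Total estimated counts ran from 7640172 to 12927411 per library. The 18S ribosomal RNA gene took 7.71% of them in NoUVB 2 and 34.3% to 55.3% in the other 8 libraries. In each library the 3 receptors together held 1757 to 2965 counts and the 6 ligands 383 to 693. The keratin genes that define epidermis were abundant in every library, with Krt5 at 895 to 1530 CPM and Krt10 at 1040 to 2440 CPM, where CPM is the count scaled to library size with the TMM factors of edgeR. UVB-Saline 3 and UVB-hCOL3A1 3 stood apart from the rest. The mean log2 level of 9 stress keratinocyte genes, set against the NoUVB mean, was 1.16 in UVB-hCOL3A1 3 and 2.23 in UVB-Saline 3, and -0.56 to 0.26 in the other 7 libraries. That of 12 hair follicle genes was -1.80 in UVB-hCOL3A1 3 and -2.33 in UVB-Saline 3, and -0.62 to 0.31 in the other 7.

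All 9 genes passed the low-count filter, as did 17168 genes in all, and none of the 9 passed an edgeR adjusted p of 0.05 in any of the 3 comparisons. DESeq2 and limma voom called 0 of the 9 as well, though DESeq2 gave Epgn no adjusted p in UVB-Saline against NoUVB. The same edgeR rule called 0% of all genes in UVB-hCOL3A1 against UVB-Saline, 0.0408% in UVB-hCOL3A1 against NoUVB and 0.0175% in UVB-Saline against NoUVB. In both comparisons of UVB-hCOL3A1, Erbb2 and Erbb3 had the smallest p values of the family, and their levels were lowest in hCOL3A1-treated skin. Both had an unadjusted p below 0.05 in UVB-hCOL3A1 against UVB-Saline, 2 of 9 genes where 11.3% of all genes did and 5.32% did so as lower. Both did in UVB-hCOL3A1 against NoUVB as well, again 2 of 9 genes, where 11.8% of all genes did. In UVB-Saline against NoUVB these were the ligands Areg and Btc, 2 of 9 genes where 9.54% of all genes did. The 3 comparisons share groups, so their values are not independent of each other.

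**Figure D1:**
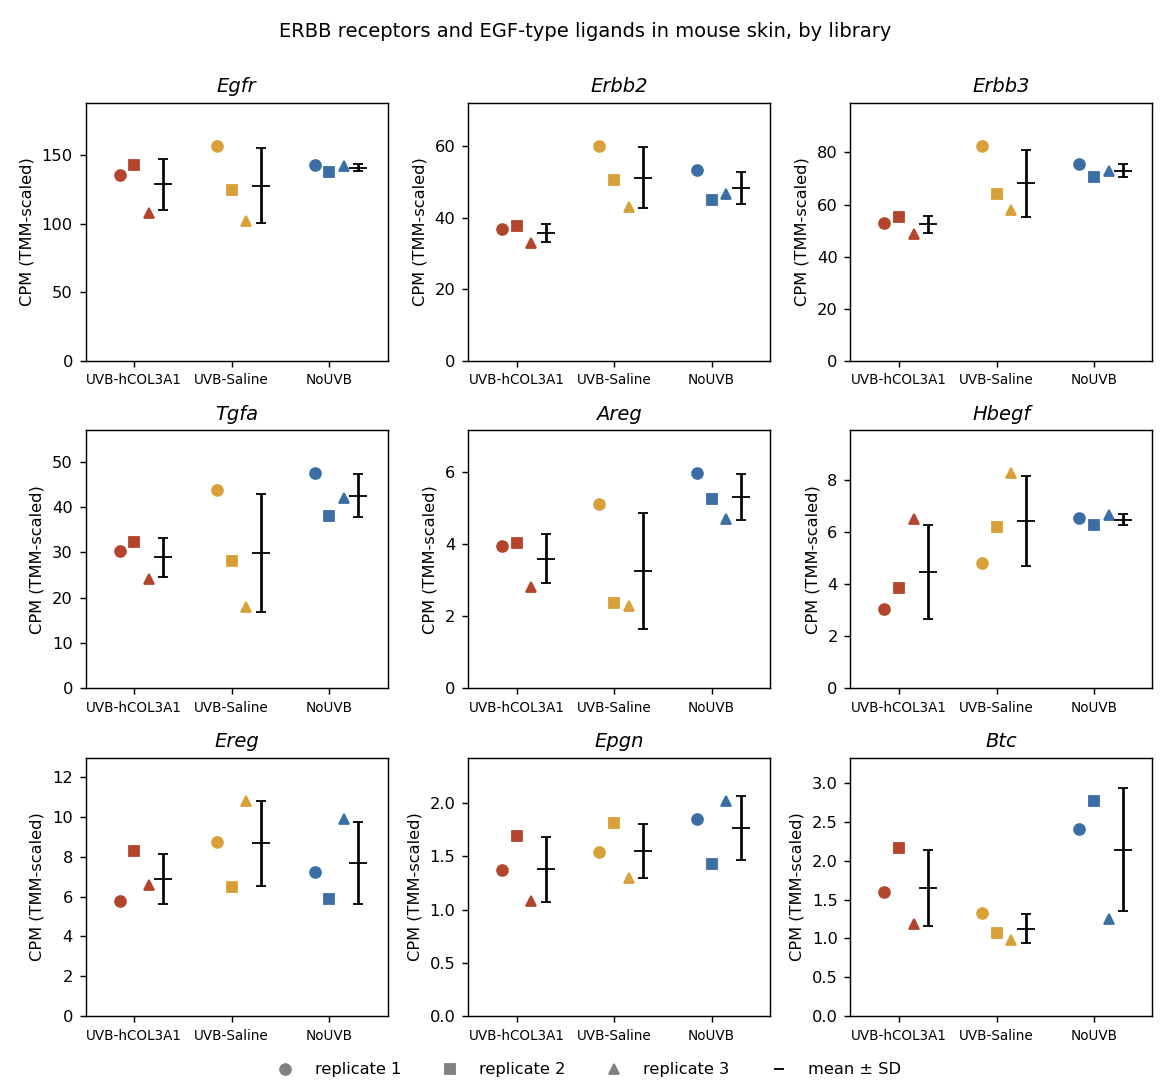
TMM-scaled CPM of the 9 genes on linear axes that start at 0. Marker shapes stand for replicates and the bar beside each group for the mean ± SD of 3 libraries. For Erbb2 and Erbb3 the 3 UVB-hCOL3A1 libraries sit below all 6 others. For Tgfa and Areg the UVB-Saline libraries spread widely, with UVB-Saline 1 near the NoUVB level.

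Levels were compared between genes only after division by exon length. Egfr (ENSMUSG00000020122), the receptor of all 6 ligands here, stood first with a median over the 9 libraries of 12.6 CPM per kb. Erbb3 (ENSMUSG00000018166) followed at 10.7 and Erbb2 (ENSMUSG00000062312) at 8.94 CPM per kb. Tgfa (ENSMUSG00000029999), the ligand tied to hair waviness, had 7.13 CPM per kb, the highest median of the ligands. Below it lay Areg (ENSMUSG00000029378; amphiregulin) at 3.33, Hbegf (ENSMUSG00000024486; heparin-binding EGF-like growth factor) at 2.63 and Ereg (ENSMUSG00000029377; epiregulin) at 1.75 CPM per kb. Epgn (ENSMUSG00000035020; epigen) had 0.852 and Btc (ENSMUSG00000082361; betacellulin) 0.464 CPM per kb. The ranges over libraries of neighbours in this order overlapped, except between Ereg (1.40 to 2.63 CPM per kb) and Epgn (0.597 to 1.12 CPM per kb). Within single libraries the order was steadier, since Erbb3 lay above Erbb2, Tgfa above Areg, and Ereg above Epgn in 9 of 9. Areg lay above Hbegf, and Hbegf above Ereg, in 6 of 9. Exon lengths were those of a GRCm38 annotation and not the authors' effective lengths, so the order of close neighbours may depend on them.

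**Figure D2:**
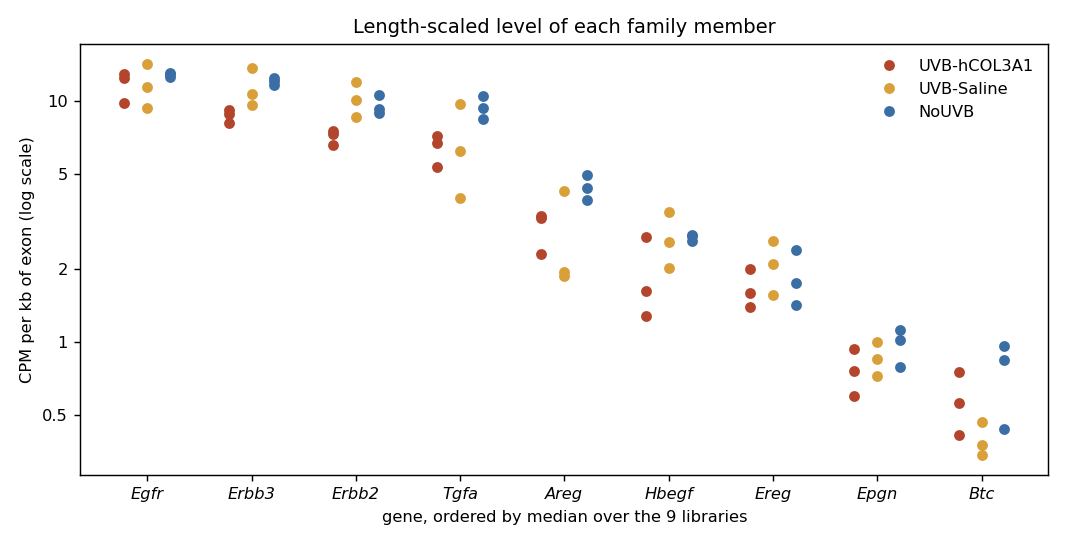
Level of each gene in CPM per kb of exon on a log axis, ordered by the median over the 9 libraries, with 1 point per library coloured by group. The receptors run from 6.57 to 14.3, Tgfa from 3.95 to 10.5, and Btc lies lowest at 0.339 to 0.963.

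Among the receptors, Erbb2 had 36.7, 37.7 and 32.9 CPM in the UVB-hCOL3A1 libraries, against 60.0, 50.6 and 42.9 CPM in UVB-Saline and 53.3, 44.8 and 46.5 CPM in NoUVB. Every UVB-hCOL3A1 library thus lay below every library of the other groups, while UVB-Saline and NoUVB overlapped. Of all genes, 8.33% lay lower in UVB-hCOL3A1 than in UVB-Saline without overlap, and 10.7% lower than in NoUVB. The share of genes lower than both groups was not computed. Erbb2 averaged 35.8 ± 2.53 CPM in UVB-hCOL3A1, 51.2 ± 8.57 CPM in UVB-Saline and 48.2 ± 4.47 CPM in NoUVB (SD, n = 3 each). The log2 fold change of UVB-hCOL3A1 against UVB-Saline was -0.52 ± 0.13 (SE; 95% interval -0.81 to -0.23; unadjusted p = 0.00241, edgeR adjusted p = 0.225), rank 181 of 17168 genes by p. Against NoUVB it was -0.43 ± 0.13 (95% interval -0.72 to -0.14; unadjusted p = 0.00794, edgeR adjusted p = 0.249). Without UVB-hCOL3A1 3 the value against UVB-Saline was -0.44 (edgeR adjusted p = 0.478), and without UVB-Saline 3 it was -0.61 (edgeR adjusted p = 0.0535). Without UVB-Saline 1, the library with the highest Erbb2, it was -0.39 (edgeR adjusted p = 0.412). In bulk skin, fewer cells of a type and less RNA per cell cannot be told apart.

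Erbb3 had 53.0, 55.3 and 48.8 CPM in UVB-hCOL3A1, against 82.5, 64.2 and 57.7 CPM in UVB-Saline and 75.4, 70.5 and 73.0 CPM in NoUVB. Again the 3 UVB-hCOL3A1 libraries lay below all 6 others, by a narrow margin to UVB-Saline 3. The means were 52.4 ± 3.31 CPM in UVB-hCOL3A1, 68.1 ± 12.9 CPM in UVB-Saline and 73.0 ± 2.44 CPM in NoUVB (SD, n = 3 each). Against UVB-Saline the log2 fold change was -0.38 ± 0.13 (95% interval -0.66 to -0.10; edgeR adjusted p = 0.333), and against NoUVB -0.48 ± 0.13 (95% interval -0.76 to -0.20; edgeR adjusted p = 0.194). Without UVB-hCOL3A1 3 the value against UVB-Saline was -0.31, without UVB-Saline 3 it was -0.47, and without UVB-Saline 1 it was -0.22 (edgeR adjusted p = 0.585, 0.113 and 0.555). The value against NoUVB was the only one of the 9 genes to pass under some of the alternatives run. The edgeR adjusted p was 0.0238 in a fit of those 2 groups alone and 0.0471 without UVB-Saline 1, with the log2 fold change at -0.48 in both. The other adjusted p values of this comparison for Erbb3 ranged up to 0.926.

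Egfr, the most abundant of the receptors, had 136, 143 and 108 CPM in UVB-hCOL3A1, against 157, 125 and 102 CPM in UVB-Saline and 143, 138 and 142 CPM in NoUVB. The groups overlapped, and the lowest values were those of UVB-Saline 3 and UVB-hCOL3A1 3. Its log2 fold change was 0.01 ± 0.15 for UVB-hCOL3A1 against UVB-Saline (95% interval -0.32 to 0.35; edgeR adjusted p = 0.988). Whether Egfr and Erbb2 differed in their response was not tested. As a share of the 3 receptors per kb, Egfr made up 43.7%, 43.7% and 40.2% in UVB-hCOL3A1, against 35.8%, 35.4% and 34.0% in UVB-Saline and 36.2%, 37.9% and 37.6% in NoUVB. This share is set within a library and does not depend on scaling between libraries, and its UVB-hCOL3A1 values did not overlap with those of either other group. The share is built from the same 3 receptor levels given above, so it is not a separate observation. How often such shares separate for other genes was not computed. Erbb2 made up 25.3% to 26.8% of the receptors in UVB-hCOL3A1, against 30% to 31.4% in UVB-Saline and 26.9% to 29.3% in NoUVB.

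**Figure D3:**
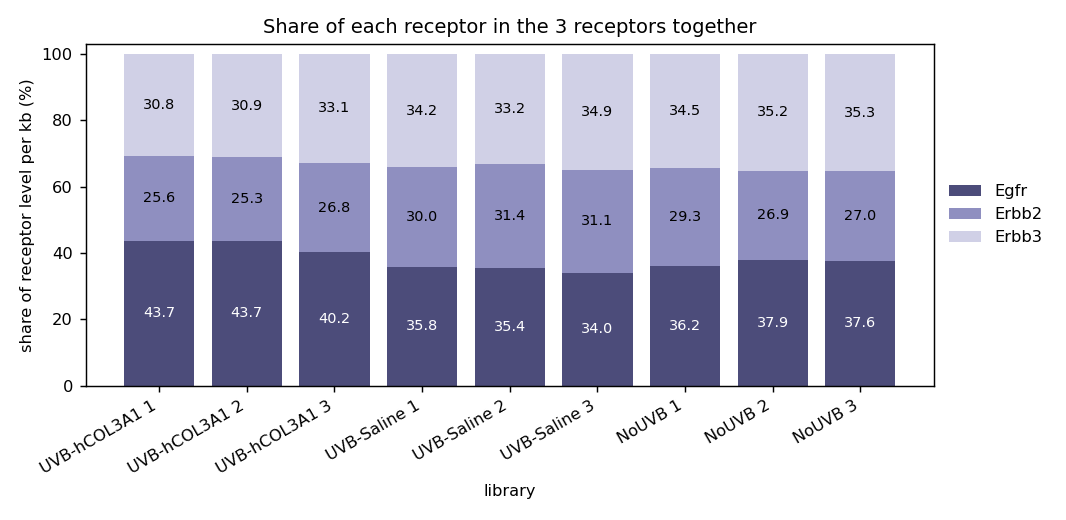
Stacked bars give the percentage of Egfr, Erbb2 and Erbb3 in the sum of their levels per kb in each library. Egfr holds 40.2% to 43.7% in the 3 UVB-hCOL3A1 libraries and 34.0% to 37.9% in the 6 others.

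Basal keratinocyte genes stood beside these values. None of the 7 markers (Krt5, Krt14, Krt15, Trp63, Itga6, Itgb4 and Col17a1) was called, all 7 had a negative log2 difference in UVB-hCOL3A1 against UVB-Saline, and their median was -0.26, where the median of all genes was -0.02. Averaged over the list, log2 CPM minus the NoUVB mean was -0.31, -0.30 and -0.21 in UVB-hCOL3A1, against -0.16, -0.01 and 0.13 in UVB-Saline and 0.05, -0.03 and -0.02 in NoUVB. The summed level of the list overlapped, at 2320 to 2840 CPM in UVB-hCOL3A1, 2380 to 4560 CPM in UVB-Saline and 2580 to 2740 CPM in NoUVB. Measured as a log2 difference from the mean of the basal markers, Erbb2 was at -2.53, -2.49 and -2.79 in UVB-hCOL3A1, against -1.97, -2.37 and -2.74 in UVB-Saline and -2.35, -2.52 and -2.47 in NoUVB, and on that scale the groups overlapped. The overlap with UVB-Saline came from UVB-Saline 3 alone. In that library the basal markers differed in direction. Krt14 had 2300 CPM, against 673 to 1060 CPM in the others, and Krt5, Itga6 and Itgb4 were also at their highest. Krt15 was at its lowest (61.4 CPM), and Trp63 (196 CPM) and Col17a1 (209 CPM) lay below every NoUVB library. Erbb2 itself had 42.9 CPM there, its lowest value in UVB-Saline. What gave rise to the overlap was not tested. Erbb3 on the same scale was at -2.0, -1.94 and -2.22 in UVB-hCOL3A1, against -1.51, -2.02 and -2.31 in UVB-Saline and -1.85, -1.87 and -1.82 in NoUVB, so that it overlapped with UVB-Saline and not with NoUVB. Markers of other cell types were compared between UVB-hCOL3A1 and UVB-Saline in the same fit, and none was called. Log2 differences were positive for 7 of 7 adipocyte markers (median 1.01), 6 of 7 skeletal muscle markers (median 1.17), 10 of 10 macrophage markers (median 0.70) and 8 of 8 fibroblast markers (median 0.34). They were positive for 0 of 9 suprabasal keratinocyte markers (median -0.28), 1 of 12 hair follicle markers (median -0.29) and 2 of 9 stress keratinocyte markers (median -0.76). Adipocyte markers summed to 807 to 1380 CPM in UVB-hCOL3A1, 449 to 637 CPM in UVB-Saline and 597 to 1460 CPM in NoUVB. Skeletal muscle markers summed to 789 to 1280 CPM in UVB-hCOL3A1, 199 to 640 CPM in UVB-Saline and 285 to 999 CPM in NoUVB. The summed levels of both lists thus lay higher in UVB-hCOL3A1 than in UVB-Saline without overlap. So did those of the fibroblast list, at 5370 to 6620 CPM against 4340 to 4540 CPM. Among all single genes, 17.3% did not overlap in that comparison, counted in either direction. A share for sums over lists was not computed. In the remaining lists, 7 of 10 sebaceous, 5 of 7 mast cell, 5 of 7 endothelium and 3 of 8 T and NK cell markers were positive. None of the tested markers of these lists was at 0 in any library. The part of these cell types in the receptor differences was not tested further.

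Upstream sequences of the receptor genes Egfr and Erbb2 and of the ligand gene Areg are shown so that their start regions can be compared. They are from RefSeq (GRCm38.p6), read 5′ to 3′ on the plus strand, and stop before the first annotated exon. For Erbb2 that exon begins 14 bases before the gene start, so 236 of the 250 bases are printed. The table held a start region for 6 of the 9 genes. Capitals mark the motif matches described after them, searched on both strands, and no match overlapped another.
Egfr, chr11:16751953-16752202: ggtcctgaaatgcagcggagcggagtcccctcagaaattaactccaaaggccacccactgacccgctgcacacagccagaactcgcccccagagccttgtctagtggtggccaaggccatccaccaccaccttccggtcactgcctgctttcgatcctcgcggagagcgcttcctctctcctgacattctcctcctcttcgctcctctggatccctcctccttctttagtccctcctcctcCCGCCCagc
Erbb2, chr11:98412234-98412469: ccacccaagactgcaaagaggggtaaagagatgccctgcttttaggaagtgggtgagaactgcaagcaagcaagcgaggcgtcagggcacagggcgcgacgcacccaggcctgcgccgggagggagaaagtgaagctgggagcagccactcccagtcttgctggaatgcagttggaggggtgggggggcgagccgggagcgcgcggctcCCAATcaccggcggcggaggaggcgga
Areg, chr5:91139349-91139598: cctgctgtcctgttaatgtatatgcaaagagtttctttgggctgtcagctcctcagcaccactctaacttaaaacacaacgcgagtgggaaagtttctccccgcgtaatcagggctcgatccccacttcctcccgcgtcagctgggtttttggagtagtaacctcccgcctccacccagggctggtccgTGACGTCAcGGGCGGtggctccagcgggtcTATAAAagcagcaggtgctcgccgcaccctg
In the 250 bases before its start, Egfr held a GC box (GGGCGG, read on the other strand) beginning 9 bases upstream, a motif found in 32.7% of 32851 start regions of that length. Erbb2 held a CCAAT box, searched as those letters, at 41 bases upstream of the gene start, counted with the 14 bases not printed, as did 33.8% of regions somewhere in the window. Neither receptor had a TATA box (searched as TATAAA), which 12.4% of regions have. Areg held that box at 31 bases and a GC box at 52 bases upstream. It also held a cyclic AMP response element (TGACGTCA) at 61 bases upstream, which 1.55% of regions hold. No AP-1 site (TGACTCA), present in 4.46% of regions, was found in the 3 windows. A match describes letters only.

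Among the ligands, Tgfa had 30.4, 32.3 and 24.1 CPM in UVB-hCOL3A1, against 43.8, 28.0 and 17.9 CPM in UVB-Saline and 47.4, 38.1 and 42.1 CPM in NoUVB. All 3 UVB-hCOL3A1 libraries lay below all NoUVB libraries, whereas UVB-Saline 1 lay within the NoUVB range and UVB-Saline 3 was lowest of the 9. Tgfa averaged 28.9 ± 4.30 CPM in UVB-hCOL3A1, 29.9 ± 13.1 CPM in UVB-Saline and 42.6 ± 4.67 CPM in NoUVB (SD, n = 3 each). The log2 fold change against NoUVB was -0.55 ± 0.27 for UVB-hCOL3A1 (edgeR adjusted p = 0.476) and -0.51 ± 0.27 for UVB-Saline (edgeR adjusted p = 0.617). Without UVB-Saline 3 the value for UVB-Saline was -0.25 (edgeR adjusted p = 0.817), and without UVB-Saline 1 it was -0.88 (edgeR adjusted p = 0.175). Without UVB-hCOL3A1 3 the value for UVB-hCOL3A1 was -0.42 (edgeR adjusted p = 0.763).

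Areg, the amphiregulin gene whose start region is printed above, had 3.96, 4.05 and 2.81 CPM in UVB-hCOL3A1, against 5.13, 2.38 and 2.28 CPM in UVB-Saline and 5.97, 5.27 and 4.71 CPM in NoUVB. As for Tgfa, the UVB-hCOL3A1 libraries lay below all NoUVB libraries, and UVB-Saline 1 lay within the NoUVB range. These levels rest on 21 to 59 counts per library. Areg averaged 3.61 ± 0.693 CPM in UVB-hCOL3A1, 3.26 ± 1.62 CPM in UVB-Saline and 5.32 ± 0.627 CPM in NoUVB (SD, n = 3 each). Its log2 fold change against NoUVB was -0.54 ± 0.31 in UVB-hCOL3A1 (edgeR adjusted p = 0.527) and -0.70 ± 0.31 in UVB-Saline (95% interval -1.40 to -0.01; edgeR adjusted p = 0.521). Without UVB-Saline 1 the UVB-Saline value was -1.18 (edgeR adjusted p = 0.174), and without UVB-Saline 3 it was -0.52 (edgeR adjusted p = 0.730). In UVB-hCOL3A1 against UVB-Saline the log2 fold change was 0.16 ± 0.32 for Areg and -0.05 ± 0.28 for Tgfa, with 95% intervals of -0.54 to 0.86 and -0.67 to 0.58.

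The 2 libraries with the lowest Tgfa, UVB-Saline 3 and UVB-hCOL3A1 3, were those with the lowest hair follicle and highest stress keratinocyte levels. Krt71, an inner root sheath keratin, had 335 CPM in UVB-hCOL3A1 3 and 193 CPM in UVB-Saline 3, and 838 to 1600 CPM in the other 7 libraries. Krt16, a keratin of wounded epidermis, had 255 CPM in UVB-hCOL3A1 3 and 1440 CPM in UVB-Saline 3, and 46.3 to 93.2 CPM in the other 7. Not all genes of the stress list followed it. Krt17 had 282 CPM in UVB-hCOL3A1 3, against 284 to 389 CPM in NoUVB. S100a8 had 4.88 CPM in UVB-Saline 3, against 6.11 to 10.6 CPM in NoUVB. The 12 tested hair follicle genes summed to 798 to 2200 CPM in UVB-hCOL3A1, 447 to 3500 CPM in UVB-Saline and 1930 to 3490 CPM in NoUVB. None of the 12 was called in any comparison, and the part of hair follicle content in the Tgfa and Areg levels was not tested.

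Hbegf, a ligand released early in wounded epidermis, ran the other way across those libraries. It had 3.05, 3.86 and 6.48 CPM in UVB-hCOL3A1, against 4.82, 6.17 and 8.24 CPM in UVB-Saline and 6.53, 6.25 and 6.64 CPM in NoUVB. In each irradiated group replicate 3 had the highest value, and the groups overlapped. The log2 fold change of UVB-hCOL3A1 was -0.54 ± 0.28 against UVB-Saline (edgeR adjusted p = 0.506) and -0.55 ± 0.28 against NoUVB (edgeR adjusted p = 0.483). Without UVB-hCOL3A1 3 these were -0.87 (edgeR adjusted p = 0.407) and -0.89 (edgeR adjusted p = 0.389).

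Epgn, Ereg, Areg and Btc follow one another on mouse chromosome 5 with no other protein-coding gene between them in RefSeq. Their values ran partly alike, and how alike was not tested. Ereg had 5.79, 8.28 and 6.58 CPM in UVB-hCOL3A1, against 8.72, 6.49 and 10.8 CPM in UVB-Saline and 7.24, 5.89 and 9.91 CPM in NoUVB. UVB-Saline 3, among the lowest for Areg, was the highest for Ereg. Areg and Btc, in contrast, both had their lowest values in UVB-Saline 2 and UVB-Saline 3. Btc had 1.6, 2.16 and 1.19 CPM in UVB-hCOL3A1, against 1.33, 1.07 and 0.976 CPM in UVB-Saline and 2.41, 2.77 and 1.25 CPM in NoUVB. Its log2 fold change of -0.92 ± 0.38 in UVB-Saline against NoUVB (unadjusted p = 0.0349, edgeR adjusted p = 0.491) was the largest in size among the 27 values of the family, and it rests on 9 to 31 counts per library with NoUVB 3 inside the UVB-Saline range. Epgn had 1.37, 1.69 and 1.08 CPM in UVB-hCOL3A1, against 1.54, 1.81 and 1.3 CPM in UVB-Saline and 1.85, 1.43 and 2.02 CPM in NoUVB. These are 10 to 22 counts per library, at which the 95% interval of its log2 fold change in UVB-hCOL3A1 against NoUVB, -1.01 to 0.34, does not exclude a change of 2-fold downward.

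**Figure D4:**
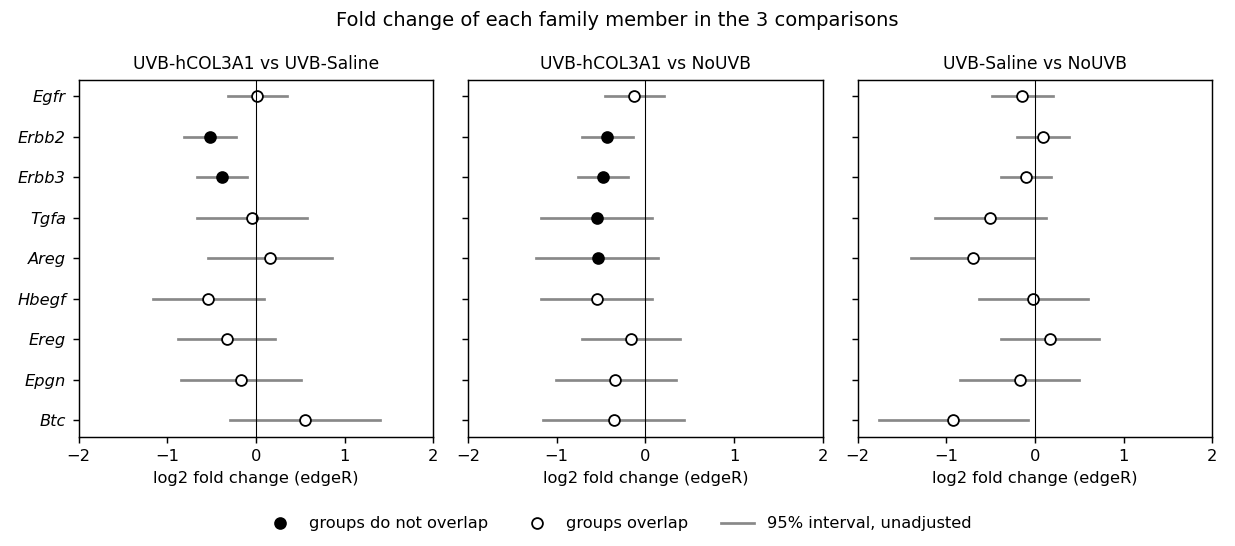
edgeR log2 fold change of each gene (points) with its unadjusted 95% interval (lines) in the 3 comparisons. Filled points mark genes whose groups do not overlap, which are Erbb2 and Erbb3 in UVB-hCOL3A1 against UVB-Saline, and Erbb2, Erbb3, Tgfa and Areg in UVB-hCOL3A1 against NoUVB.

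Across the family, the groups did not overlap for 2 of 9 genes in UVB-hCOL3A1 against UVB-Saline, both lower, where 17.3% of all genes did not overlap and 8.33% were lower. In UVB-hCOL3A1 against NoUVB it was 4 of 9 genes, all lower, where 21.4% of all genes did not overlap and 10.7% were lower. In UVB-Saline against NoUVB it was 0 of 9, where 13.8% of all genes did not overlap and 6.61% of all genes were lower without overlap. The fold changes in UVB-hCOL3A1 against NoUVB were negative for 9 of 9 genes, with a median log2 value of -0.43 and a range of -0.55 to -0.13. Over all 17168 genes the median was -0.01 and 49.2% were positive, against 46.1% in UVB-hCOL3A1 against UVB-Saline and 51.8% in UVB-Saline against NoUVB. In UVB-hCOL3A1 against UVB-Saline 3 of 9 were positive (median -0.17, all genes -0.02), and in UVB-Saline against NoUVB 2 of 9 (median -0.14, all genes 0.01). The spread within groups differed by gene. For Egfr the coefficient of variation was 14.4% in UVB-hCOL3A1, 21.6% in UVB-Saline and 1.88% in NoUVB, and for Tgfa it was 14.8%, 43.7% and 11% in the same groups.

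The makeup of the ligand pool, per kb, followed these levels. Tgfa made up 41.0% to 48.1% of the 6 ligands in UVB-hCOL3A1, 30.4% to 50.0% in UVB-Saline and 45.3% to 48.2% in NoUVB. In UVB-Saline 3, where Tgfa held 30.4%, Hbegf held 26.7% and Ereg 20.3%. The ligands summed to 14, 15.8 and 13 CPM per kb in UVB-hCOL3A1, against 19.4, 13.7 and 13 CPM per kb in UVB-Saline and 21.8, 18.6 and 19.9 CPM per kb in NoUVB. UVB-hCOL3A1 lay below NoUVB in all libraries, and UVB-Saline 1 lay within the NoUVB range.

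**Figure D5:**
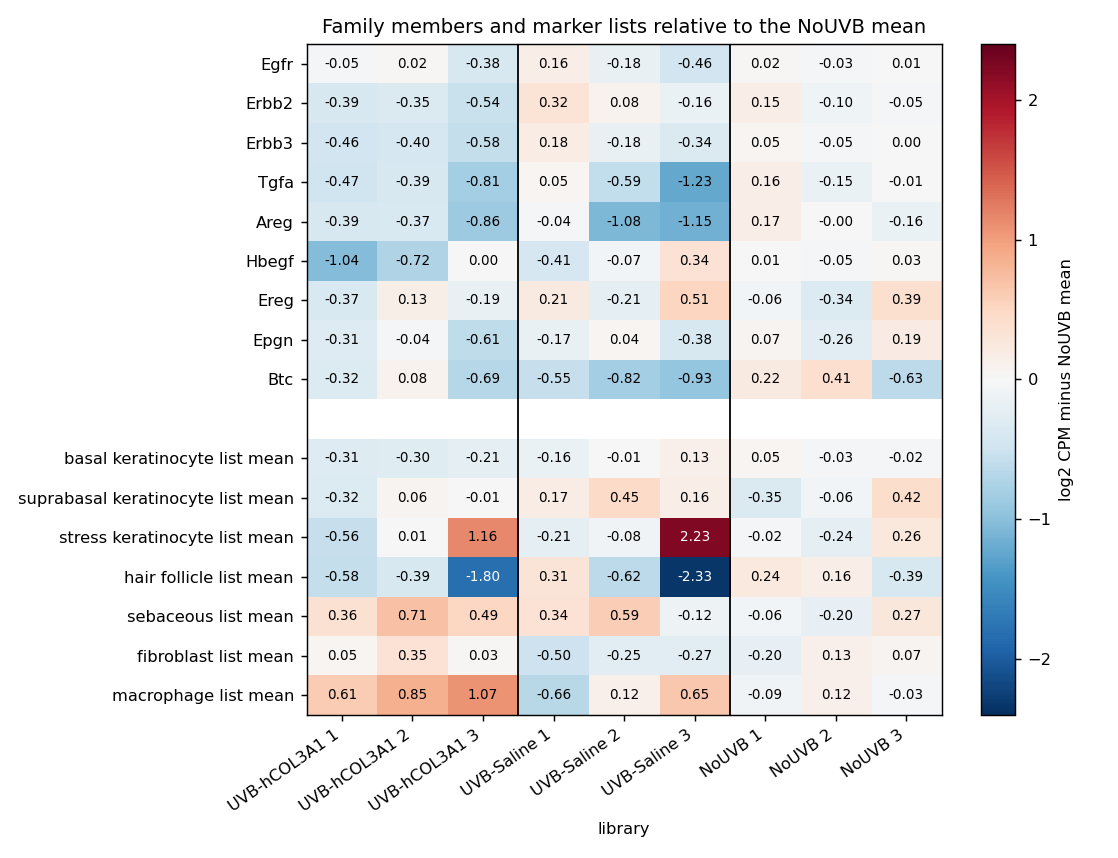
log2 CPM minus the NoUVB mean for the 9 genes (upper block) and the mean of the same quantity over 7 marker lists (lower block), with libraries in columns. Erbb2 and Erbb3 are negative in all 3 UVB-hCOL3A1 libraries, and UVB-hCOL3A1 3 and UVB-Saline 3 share low hair follicle and Tgfa values with high stress keratinocyte values.

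The genes whose log2 CPM followed a family member most closely over the 9 libraries were picked as the 3 with the highest Pearson r, so these values are a description without a test. For Egfr they were Mt1, a metallothionein (r = 0.99), Egr3, an early response transcription factor (r = 0.98), and Zfp664 (r = 0.97). For Erbb2 they were Plxnb1, a semaphorin receptor (r = 0.98), Crybg1 (r = 0.97) and Tead3, a transcription factor of the Hippo pathway (r = 0.97). Crybg1 (r = 0.97) also led for Erbb3, followed by Mpp7 and the Notch ligand Jag1 (r = 0.97 each). For Tgfa they were the keratin gene Krt23 (r = 0.98), Gclc, an enzyme of glutathione synthesis (r = 0.98), and Ftsj1 (r = 0.97). For Areg they were Ppp1r13b, Hoxb8 (r = 0.97 each) and Msi2 (r = 0.95). For Hbegf they were Skint2, Hcar2 and Zfp536 (r = 0.92 to 0.94), for Ereg Rps6kc1, Mxd1 and Wdr53 (r = 0.92 to 0.96), for Epgn Ugt1a6a, Mxi1 and Ten1 (r = 0.89 to 0.94), and for Btc Cplx2, Sgcd and Hp (r = 0.94 to 0.96).

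Counts of the remaining receptor and ligands of the wider family ranged widely, and those of Erbb4 and Nrg3 were near 0. Erbb4, the neuregulin receptor known from heart and brain, had 0 to 3 counts per library and Nrg3 0 to 2, and both were left out by the low-count filter. Nrg1, a ligand of ERBB3, had 67, 47.3 and 62 counts in UVB-hCOL3A1, against 49, 76 and 94 in UVB-Saline and 46, 36 and 52 in NoUVB, with a log2 difference of 0.56 ± 0.32 in UVB-Saline against NoUVB (edgeR adjusted p = 0.628). Nrg2 was at -0.57 ± 0.27 in UVB-hCOL3A1 against NoUVB (edgeR adjusted p = 0.447). Egf, the first known ligand of EGFR, had 18 to 38.9 counts per library and Nrg4 had 72.4 to 132. None of the 4 tested genes was called in any comparison.

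Of 11 genes that act on ligand release, 0 were called in each comparison. The list holds sheddases and their helpers and also Timp3, an inhibitor of ADAM proteases, so its median mixes opposite roles. Timp3 was at -0.08 ± 0.16 in UVB-hCOL3A1 against NoUVB (edgeR adjusted p = 0.887). The value with the smallest p belonged to Adam12, a metalloprotease that cleaves Hbegf, with 34.0, 35.7 and 39.7 CPM in UVB-hCOL3A1, against 18.3, 26.1 and 29.3 CPM in UVB-Saline and 15.5, 18.6 and 20.4 CPM in NoUVB. The UVB-hCOL3A1 libraries lay above all 6 others. Of all genes, 17.3% did not overlap with UVB-Saline and 21.4% with NoUVB, in either direction. The log2 difference of Adam12 in UVB-hCOL3A1 against NoUVB was 1.00 ± 0.17 (edgeR adjusted p = 0.0854). Adam9 was at 0.36 ± 0.12 (edgeR adjusted p = 0.273) in the same comparison. Rhbdf2 and Rhbdf1 encode iRhoms, which carry the main sheddase ADAM17 to the surface. They were at -0.36 ± 0.14 (edgeR adjusted p = 0.386) and -0.17 ± 0.11 (edgeR adjusted p = 0.613) in UVB-hCOL3A1 against UVB-Saline. The list median was 0.09 in UVB-hCOL3A1 against NoUVB, where that of all genes was -0.01.

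Of 21 tested feedback inhibitors, 0 were called in any comparison, and their medians lay between -0.01 and 0.06. Errfi1, whose product (MIG6) binds and inhibits the EGFR kinase, had 41.8, 48.1 and 50.9 CPM in UVB-hCOL3A1, against 58.0, 47.4 and 42.6 CPM in UVB-Saline and 72.7, 69.9 and 120 CPM in NoUVB. Both irradiated groups lay below NoUVB without overlap. Of all genes, 10.7% did so in UVB-hCOL3A1 and 6.61% in UVB-Saline. Errfi1 was named for the smallest p of its list. The log2 difference from NoUVB was -0.90 ± 0.21 in UVB-hCOL3A1 (edgeR adjusted p = 0.164) and -0.83 ± 0.21 in UVB-Saline (edgeR adjusted p = 0.316). Lrig3, a gene of the LRIG family of membrane proteins, was at -0.41 ± 0.11 in UVB-hCOL3A1 against NoUVB (edgeR adjusted p = 0.206). Lrig2 of the same family was at -0.29 ± 0.14 in UVB-hCOL3A1 against UVB-Saline (edgeR adjusted p = 0.464), and Cbl, a ubiquitin ligase of EGFR, at 0.19 ± 0.09 in UVB-Saline against NoUVB (edgeR adjusted p = 0.539).

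The adaptors and kinases between receptor and nucleus stayed near 0 as a list, with medians of 0.01, 0.02 and -0.02 in UVB-hCOL3A1 against UVB-Saline, UVB-hCOL3A1 against NoUVB and UVB-Saline against NoUVB. None of the 26 was called. Pik3r1, the regulatory subunit of PI3 kinase, was at 0.37 ± 0.10 in UVB-hCOL3A1 against UVB-Saline (edgeR adjusted p = 0.229) and -0.37 ± 0.10 in UVB-Saline against NoUVB (edgeR adjusted p = 0.319). Plcg1, a phospholipase recruited by EGFR, was at -0.29 ± 0.08 and Grb2, the adaptor that links receptor to RAS, at 0.42 ± 0.13 in UVB-hCOL3A1 against NoUVB (edgeR adjusted p = 0.205 and 0.267). Gab1, a docking protein, was at -0.31 ± 0.10 in UVB-Saline against NoUVB (edgeR adjusted p = 0.401).

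Early response genes that ERK signalling induces were negative against NoUVB in 19 of 22 members in UVB-hCOL3A1 (median -0.22) and in 19 of 22 in UVB-Saline (median -0.33), where the medians of all genes were -0.01 and 0.01. None was called, while 9 and 7 of the 22 had an unadjusted p below 0.05 as lower, where 5.52% and 4.60% of all genes did. Ier2 had 22.1, 21.5 and 19.8 CPM in UVB-hCOL3A1, against 28.1, 21.2 and 19.5 CPM in UVB-Saline and 30.1, 32.8 and 33.7 CPM in NoUVB, so that both irradiated groups lay below NoUVB without overlap. Of all genes, 10.7% did so in UVB-hCOL3A1 and 6.61% in UVB-Saline. Ier2 was named for the smallest p of its list. Its log2 difference from NoUVB was -0.61 ± 0.14 in UVB-hCOL3A1 (edgeR adjusted p = 0.162) and -0.49 ± 0.14 in UVB-Saline (edgeR adjusted p = 0.353). Ccn1, a matricellular protein gene, was at -0.91 ± 0.22 (edgeR adjusted p = 0.172), Egr1 at -0.80 ± 0.22 (edgeR adjusted p = 0.205) and Junb at -0.65 ± 0.17 (edgeR adjusted p = 0.194) in UVB-hCOL3A1 against NoUVB. The NoUVB libraries themselves differed, with Ccn1 at 37.4, 36.2 and 64.4 CPM and Fos at 67.6, 47.5 and 159 CPM. Averaged over the list, log2 CPM minus the NoUVB mean was -0.16, -0.14 and 0.30 in NoUVB. It was -0.30, -0.47 and -0.45 in UVB-Saline and -0.32, -0.39 and -0.30 in UVB-hCOL3A1. NoUVB 3 thus raised the level from which differences were taken. The 22 genes were measured in the same libraries, so they are not separate observations. Signalling itself was not measured.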

How the data were processed

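The authors deposited 1 table of estimated counts per gene for the 9 libraries. Per the submitters' processing notes, the tools were STAR 2.7.11b, RSEM 1.3.3, fastp 0.23.4, DESeq2 1.44.0 and Bowtie2 2.5.4, and the build was GRCm39. Annotation, strandedness and the order of steps are not stated. Whether reads of overlapping or antisense genes were separated is therefore unknown. Counts were rounded. No 2 libraries of a group were alike (chi-square per degree of freedom 8.19 to 251).

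In R 4.3.3, edgeR 4.0.16 kept 17168 genes (filterByExpr, minimum count 10), scaled them by TMM and fitted all 3 groups at once by robust quasi-likelihood without a replicate block (6 residual degrees of freedom), tested two-sided with Benjamini-Hochberg adjustment over all genes and a threshold of 0.05. log2 CPM used a prior count of 2. Alternatives included DESeq2 1.42.0, limma 3.58.1 voom, other scalings, filters and fits, and leaving out each library. The test was tried on simulated counts. Exon lengths came from GENCODE M21 (GRCm38), matched by gene ID. All 9 genes were named whatever their values, with up to 4 genes of smallest p per pathway list and the 3 most alike genes per member. Members and lists were chosen with earlier results of these data known. Errors cover the spread between libraries, and 3 libraries per group limit the precision.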

Additional observations from a re-analysis of the deposited data

How the results depend on the processing

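Of 513 values of the 27 fold changes of the family under 19 alternatives, 494 kept their direction and side of the threshold, 2 newly passed (Erbb3 in UVB-hCOL3A1 against NoUVB) and 17 changed sign. The sign changes fell on 8 fold changes near 0, and the cause was not tested. For UVB-hCOL3A1 against UVB-Saline, Egfr was -0.06 scaled by library size alone, and Tgfa was 0.04 with limma voom and 0.00 with the replicate block. Without single libraries the log2 ranges in that comparison were -0.11 to 0.19 for Egfr, -0.29 to 0.33 for Tgfa and -0.02 to 0.63 for Areg. In UVB-hCOL3A1 against NoUVB they were -0.21 to 0.00 for Egfr and -0.32 to 0.08 for Ereg, and in UVB-Saline against NoUVB -0.04 to 0.19 for Erbb2, -0.03 to 0.39 for Ereg and -0.24 to 0.15 for Hbegf. Family members called in UVB-hCOL3A1 against NoUVB numbered 1 in a fit of those 2 groups alone, and 0 to 1 without single libraries. Over all genes, edgeR called 0 in UVB-hCOL3A1 against UVB-Saline, 7 in UVB-hCOL3A1 against NoUVB and 3 in UVB-Saline against NoUVB. In that order the counts were 30, 159 and 100 by library size alone, 106, 178 and 73 with no low-count filter, and 173, 269 and 96 with DESeq2. For UVB-hCOL3A1 against NoUVB they were also 0 with limma voom, 1 with non-robust dispersion and 407 in the 2-group fit. Without single libraries they ranged from 0 to 78 (highest without UVB-Saline 3), 0 to 242 (without UVB-Saline 3) and 0 to 12 (without UVB-Saline 1) in the same order. By library size alone the median of all genes moved to -0.12 in UVB-hCOL3A1 against NoUVB, and 53.3%, 72.3% and 61.0% of the calls were higher. The labels do not say that equal replicate numbers mark a shared source. Correlations of deviations ran from 0.02 to 0.41 in the 9 same-numbered pairs, not all over 0.1, and from -0.39 to 0.26 in other pairs. In 6 of 9 libraries the best correlation was with one of their own number, which for NoUVB 1 was only 0.02. The highest value, 0.41, was that of UVB-Saline 3 and UVB-hCOL3A1 3. Pairing is not given by the design and was not tested. The replicate block called 74, 118 and 61 genes in the same order and none of the family. At 9 to 31 counts, Epgn and Btc have wide intervals.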
